A study of Mus musculus with 6 samples.

Results

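A set of 7 genes of intravascular triglyceride lipolysis was examined in neonatal mouse liver, with hSRY-ON pups compared to hSRY-OFF pups. They were taken by symbol, whatever the values of their probes, from a set proposed with earlier results of these data known. They are the plasma lipases *Lpl*, *Lipc* and *Lipg*, the lipase regulators *Angptl4* and *Angptl6*, the lipase carrier *Gpihbp1* and the lipoprotein receptor gene *Vldlr*. Of the 25697 probes in the liver table, 10 carried the symbol of 1 of these genes, and they covered 6 of the 7. *Angptl6* was not analysed here.

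The samples were liver RNA of male pups at postnatal day 6, of strain FVB by the labels and FVB/N by the study's methods. There were 3 hSRY-ON and 3 hSRY-OFF samples, each read on Illumina MouseRef-8 bead arrays, and how the samples were laid out over chips is not given in the sources used here. The hSRY-ON pups carried a recombined *Signalox-hSRY* transgene, a single copy at the *H11* locus in which the CAG promoter drives FLAG-tagged human *SRY* together with *EGFP* after Cre has removed a floxed *DsRed2* cassette. Recombination came from Cre in the oocytes of *Ddx4-Cre* mothers, and the hSRY-ON pups taken for the arrays did not carry *Ddx4-Cre* themselves. By the study's methods, hSRY-OFF mice carry the same transgene without recombination, so that *DsRed2* is expressed and human *SRY* is not. The methods also describe control littermates without the transgene, and the labels do not give the transgene status of each arrayed hSRY-OFF mouse. The transgene was present as 1 mouse line, and CAG is broadly active, so human *SRY* expression was not restricted to the liver of these pups. The study reports that hSRY-ON pups grew more slowly than littermate controls, suckled little and lacked milk in the stomach at necropsy. It also reports steatosis in their livers. The part of feeding state and growth in the differences below was not tested, and this design cannot tell it apart from genotype.

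Lipoprotein lipase, the product of *Lpl*, hydrolyses the triglycerides of chylomicrons and very low density lipoproteins at the capillary wall. GPIHBP1 carries the enzyme across endothelial cells and holds it at their luminal face, and ANGPTL4 inactivates it. Hepatic lipase (*Lipc*) and endothelial lipase (*Lipg*) act mainly on smaller lipoproteins and phospholipids, and VLDLR binds triglyceride-rich particles that carry apolipoprotein E. In rodents *Lpl* is expressed in the neonatal liver and declines there later in life.

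*Angptl4*, *Gpihbp1* and *Vldlr* were each about 3-fold higher in hSRY-ON livers, while *Lpl* was lower by a margin that did not pass the test, and *Lipc* and *Lipg* were not detected. Of the 10 probes, 6 were tested, and each of these 6 was detected on every array. By limma's moderated test with adjustment over the 10734 tested probes, 5 of the 6 were higher in hSRY-ON at an adjusted p under 0.05, and 0 were lower. Those 5 probes stood for 3 of the 4 tested genes, because 3 of them measured *Vldlr*. Among all tested probes, 33.1% passed the same threshold, 15.8% higher and 17.3% lower in hSRY-ON. The median log2 difference, hSRY-ON minus hSRY-OFF, was 1.61 over the 6 probes and 0.02 over all tested probes. The log2 levels of the groups did not overlap for 5 of the 6 probes, and for 49.96% of all tested probes.

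Levels are given below either as deposited intensities, which are not normalized, or as log2 intensities after background correction and quantile normalization. Group values are means ± SD of the log2 intensities over 3 mice. In bulk liver RNA, a change in the number of cells of a type cannot be told apart from a change in the RNA of that gene per cell. The arrays had median intensities between 147 and 165 and detected 10318 to 10762 probes each at a detection p under 0.01. Correlations between arrays were 0.987 to 0.992 within hSRY-OFF, 0.965 to 0.982 within hSRY-ON and 0.912 to 0.939 between the groups. The median SD of a tested probe over 3 mice was 0.14 in hSRY-OFF and 0.21 in hSRY-ON on the log2 scale.

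**Figure D1:**
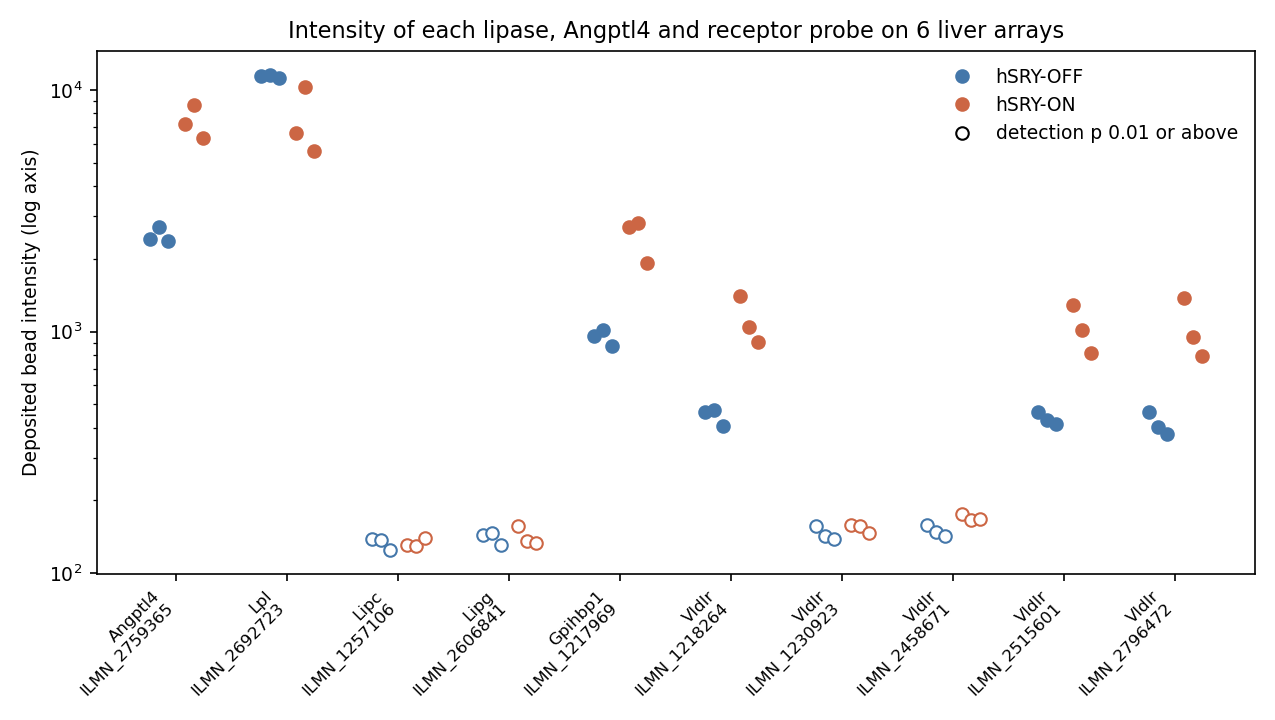
Deposited, non-normalized intensity (log axis) of each of the 10 probes on each array, with hSRY-OFF and hSRY-ON mice shown as separate groups of 3 points and open points marking a detection p of 0.01 or above. The *Angptl4*, *Gpihbp1* and 3 detected *Vldlr* probes were brighter on all 3 hSRY-ON arrays, *Lpl* was dimmer with 1 hSRY-ON array close to the hSRY-OFF arrays, and the other 4 probes were detected on no array, of which ILMN_2458671 for *Vldlr* was also brighter on all 3 hSRY-ON arrays.

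*Lpl* was brightly detected in every liver. Its deposited intensities were 11436, 11587 and 11251 in the hSRY-OFF mice and 6638, 10328 and 5593 in the hSRY-ON mice. The hSRY-OFF livers lay close together, with a coefficient of variation of 1.47%, whereas the hSRY-ON livers were spread over 33.1%, replicate 2 being far above the other two. After normalization the log2 levels were 13.33, 13.36 and 13.55 in hSRY-OFF and 12.63, 13.36 and 12.70 in hSRY-ON. The groups, which were separate as deposited intensities, then overlapped, since hSRY-ON replicate 2 at 13.36 lay above hSRY-OFF replicate 1 at 13.33. The difference was -0.52 on the log2 scale (SE 0.21, 95% interval -0.999 to -0.03, a 1.43-fold lower mean), and limma's adjusted p was 0.0929.

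The call for *Lpl* rested on hSRY-ON replicate 2. Without that mouse the log2 difference was -0.74 with limma's adjusted p at 0.0096, and with array weights it was -0.58 with an adjusted p of 0.0263. Over the 16 alternative settings the adjusted p ranged from 0.0096 to 0.245, and the difference from -0.74 to -0.38. The interval of the main fit allows anything from nearly no difference to a 2-fold lower level.

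The other plasma lipases gave no measurable signal. *Lipc*, the hepatic lipase, had deposited intensities of 138, 137 and 125 in hSRY-OFF and 131, 129 and 140 in hSRY-ON. *Lipg*, which encodes endothelial lipase, had 143, 146 and 130 in hSRY-OFF and 157, 135 and 133 in hSRY-ON. Neither probe was detected on any of the 6 arrays, so both were left untested. Hepatic lipase is ordinarily a product of hepatocytes, and the single *Lipc* probe gives no level for it here.

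*Angptl4*, whose product inactivates lipoprotein lipase and which is induced by fasting and by PPAR ligands, was higher in every hSRY-ON liver. Deposited intensities were 2426, 2717 and 2364 in hSRY-OFF and 7252, 8666 and 6335 in hSRY-ON. The lowest hSRY-ON liver was thus well above the highest hSRY-OFF liver, and the groups did not overlap. The log2 level was 11.16 ± 0.16 in hSRY-OFF and 12.92 ± 0.19 in hSRY-ON (SD, n = 3 each), a difference of 1.76 (SE 0.15, 95% interval 1.42 to 2.11) or 3.40-fold. Its adjusted p by limma was 0.000335, and its rise ranked 143 among the 10734 tested probes.

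*Gpihbp1*, the endothelial carrier of lipoprotein lipase, rose alongside. The deposited intensities were 958, 1013 and 873 in hSRY-OFF and 2699, 2806 and 1931 in hSRY-ON. Replicate 3 was the lowest of the hSRY-ON mice for both *Angptl4* and *Gpihbp1* as deposited, yet stayed above every hSRY-OFF mouse. The log2 level went from 9.67 ± 0.13 to 11.25 ± 0.21 (SD, n = 3 each), a difference of 1.58 (SE 0.15, 95% interval 1.23 to 1.93), which is 2.99-fold. The adjusted p by limma was 0.000492, and the rise ranked 190 among the tested probes.

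Markers of endothelium, the cell type in which GPIHBP1 acts, were mixed, with 4 of 11 tested genes called higher and 1 lower. Of 13 tested endothelial probes, 6 were higher in hSRY-ON (for *Pecam1*, *Lyve1*, *Egfl7* and *Esam*) and 1, for *Clec4g*, was lower. Over all tested probes these shares were 15.8% and 17.3%, and the list's median log2 difference was 0.54. The summed level of the list, on the linear normalized scale, ranged from 15740 to 18180 in hSRY-OFF and from 19190 to 22330 in hSRY-ON. Among the called genes, *Esam* rose by 1.19 on the log2 scale, *Egfl7* by 0.69 and 0.68 on its called probes, and *Pecam1* by 0.64 on each of its probes. The fall of *Clec4g* was 0.58. *Cdh5* differed by 0.13 with an adjusted p by limma of 0.598, and *Kdr* was detected on no array. *Tek*, *Tie1*, *Stab1*, *Stab2* and *Eng* differed by -0.40, 0.08, 0.20, 0.24 and 0.54 without passing the test. *Lyve1*, a marker of lymphatic and sinusoidal endothelium, had the widest difference of the list at 1.94, and was detected on 1 hSRY-OFF array and 3 hSRY-ON arrays. With hSRY-OFF intensities of 178, 205 and 164, it entered the test only because of the hSRY-ON group, and nothing is read from its call. The counts, median and sum of the list include *Lyve1*. The part of endothelial cells in the rise of *Gpihbp1* was not tested.

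Adipocytes and striated muscle, the main sites of *Lpl* expression in the body, gave no sign in these libraries. All 7 adipocyte markers, among them *Adipoq* and *Plin1*, and all 7 striated muscle markers with a probe, among them *Ckm* and *Acta1*, were detected on 0 arrays. Their summed levels were 175 to 203 in hSRY-OFF and 194 to 202 in hSRY-ON for adipocytes, and 243 to 259 and 255 to 259 for striated muscle.

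*Vldlr* encodes a lipoprotein receptor that is abundant in heart, muscle and fat and ordinarily low in liver. Its promoter is shown because *Vldlr* was the only tested gene of the set with a promoter window available here. The RefSeq promoter table (mouse build GRCm38.p6) held a window for *Vldlr*, *Lipc* and *Angptl6*, and the first of the 2 listed *Vldlr* starts gave the 250 bases upstream, at chr19:27216234-27216483 on the plus strand. Capitals mark the match to ACAAT, a core recognised by HMG box proteins such as SRY and the SOX factors.
Vldlr: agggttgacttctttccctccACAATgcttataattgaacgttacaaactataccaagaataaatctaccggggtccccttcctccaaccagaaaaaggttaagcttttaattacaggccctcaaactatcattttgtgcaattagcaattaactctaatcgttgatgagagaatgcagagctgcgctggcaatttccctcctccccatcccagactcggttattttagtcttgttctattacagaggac

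On both strands, ACAAT occurred 1 time in this window, with its first base at position -229 from the start, and 27.66% of the 32851 windows in the table held it at least once over the same length. The longer SRY core AACAAT, which contains ACAAT, was not in the window and was found in 9.424% of windows. ACGTG, the core of the hypoxia response element, was also not in the window and was found in 16.57%. A match of such short letters is a description of the sequence and not a binding site.

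The 3 detected *Vldlr* probes gave much the same change. For the brightest (ILMN_1218264), deposited intensities were 462, 471 and 407 in hSRY-OFF and 1397, 1041 and 908 in hSRY-ON. A second probe (ILMN_2515601) had 465, 431 and 415 in hSRY-OFF and 1288, 1017 and 815 in hSRY-ON. The last of them (ILMN_2796472) had 464, 401 and 377 in hSRY-OFF and 1376, 948 and 791 in hSRY-ON. On each probe every hSRY-ON liver was above every hSRY-OFF liver, and hSRY-ON replicate 1 was the highest.

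On the log2 scale ILMN_1218264 went from 8.32 ± 0.12 to 9.95 ± 0.18 (SD, n = 3 each), a difference of 1.63 (SE 0.14, 95% interval 1.30 to 1.96) or 3.09-fold, with an adjusted p by limma of 0.000351. The differences of ILMN_2515601 and ILMN_2796472 were 1.56 (SE 0.16) and 1.65 (SE 0.18), with limma's adjusted p at 0.000758 and 0.000935. The 3 probes thus ranged from 2.94-fold to 3.15-fold, a spread on the log2 scale smaller than any of their standard errors.

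The other *Vldlr* probes were detected on no array and were left untested. ILMN_1230923 had intensities of 138 to 156 in hSRY-OFF and 147 to 159 in hSRY-ON, and ILMN_2458671 had 143 to 158 and 166 to 175. The detection p of ILMN_2458671 was 0.01 to 0.031 in hSRY-ON and 0.137 to 0.352 in hSRY-OFF, so that a looser detection limit admits it through the hSRY-ON group alone, and nothing is read from its call there.

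*Lpl* and *Gpihbp1*, enzyme and carrier, were also compared within each array. The log2 level of *Lpl* minus that of *Gpihbp1* was 3.77, 3.74 and 3.73 in hSRY-OFF and 1.40, 1.89 and 1.66 in hSRY-ON. Every hSRY-ON array lay below every hSRY-OFF array, and the mean change was -2.10 on the log2 scale. The two-sided exact permutation test gave p = 0.1, the smallest value that 3 against 3 mice allow. It uses the same values as the separate differences of *Lpl* and *Gpihbp1*, so it adds no independent evidence to them. The levels of different probes are not comparable, so the size of the ratio in 1 group has no meaning and the change between groups is the measurement. This was 1 of 3 pairs planned, and the pairs of *Angptl4* with *Angptl6* and of *Lpl* with *Lipc* could not be computed.

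Across the 6 arrays, the tested probes of other genes whose log2 levels were most like *Angptl4* by Pearson's r were *Fhl1* (0.999), *Lims2* (0.999) and *Tut1* (0.998). For *Gpihbp1* these were *Atp6v1e1* (0.999), *Ncor1* (0.997) and *Rpl24* (0.997), and for the brightest *Vldlr* probe *Tpm2* (0.999), *Rit1* (0.999) and *Abcc9* (0.998). The genes most like *Lpl* were *Abcg5* (0.991), a sterol transporter, *Kyat3* (0.988), listed as *Ccbl2*, and *Serpina1d* (0.986). With 6 arrays in 2 groups, these values were set largely by the difference between the groups.

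**Figure D2:**
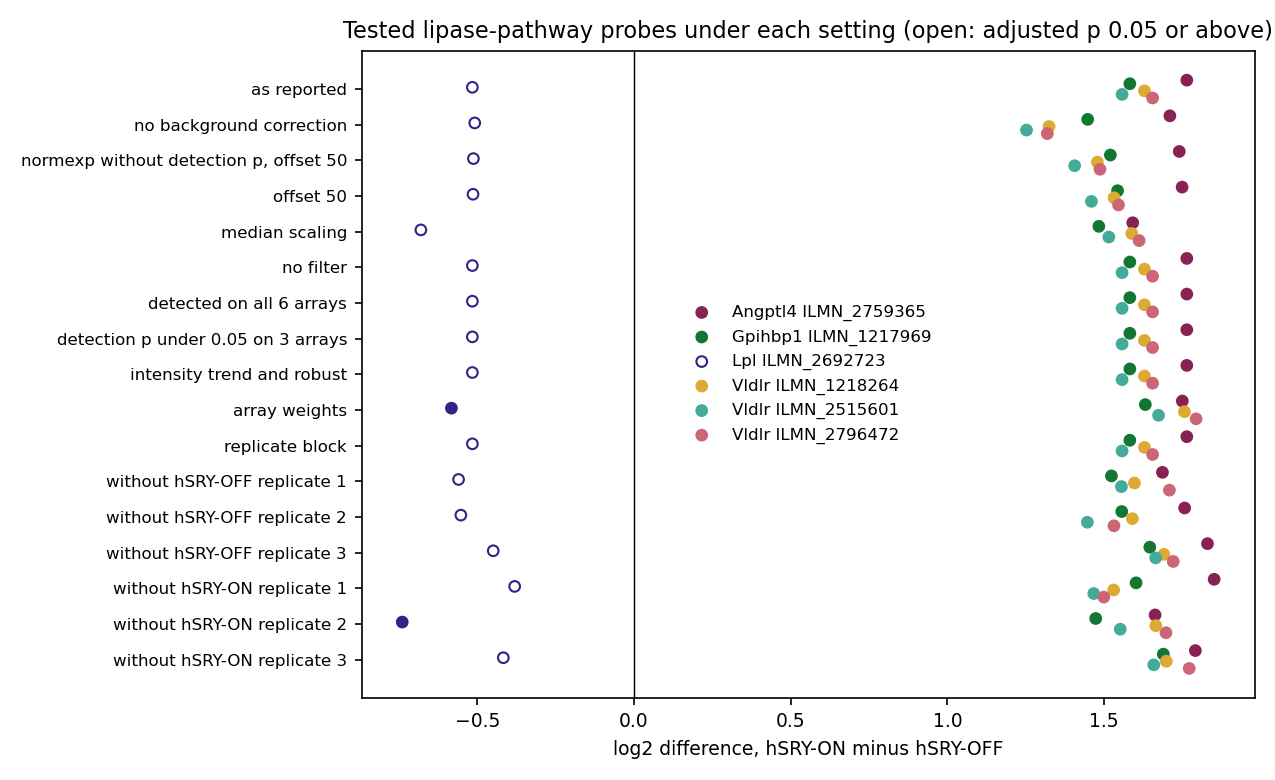
Log2 difference, hSRY-ON minus hSRY-OFF, of each of the 6 tested probes under the main setting and the alternative settings, with open points for an adjusted p of 0.05 or above. *Angptl4*, *Gpihbp1* and *Vldlr* stayed between 1.25 and 1.85, and *Lpl* stayed between -0.74 and -0.38.

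The rest of the pathway was described through 60 genes in 4 lists by role, of which 42 had a tested probe. Of their 55 tested probes, 6 were higher and 20 lower in hSRY-ON, or 47.3% called, beside the 33.1% of all tested probes, and the median log2 difference was -0.18. Genes called higher numbered 6 and genes called lower 16. The lower counts include *Angptl7* and *Srebf1*, whose called probes entered the test through the hSRY-OFF group alone. The higher count was less stable than the lower one, being 2 without hSRY-OFF replicate 1, 2 without hSRY-OFF replicate 2 and 3 without hSRY-OFF replicate 3. Of the 26 called probes, 17 kept the call at this threshold in every other processing or fit run for them, left-out mice included, and 2 higher and 12 lower probes passed the stricter adjusted p of 0.01. The other 9, among them those for *Apoa5*, *Apoc1*, *Lrp1*, *Lsr*, *Nr1h2*, *Pltp*, *Ppargc1a* and *Sirt1*, lost it in at least 1 of these and kept their direction.

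Among the other modulators of lipoprotein lipase, 2 of 17 tested probes were higher and 4 lower, close to the 33.1% called among all tested probes. The list's median log2 difference was -0.10. *Angptl8*, a regulator of the enzyme that is induced by feeding, had deposited intensities of 2945, 3570 and 1546 in hSRY-OFF and 756, 427 and 530 in hSRY-ON. Every hSRY-ON liver was below every hSRY-OFF liver, opposite to *Angptl4*. The probe, listed as *EG624219*, fell by 2.43 on the log2 scale (SE 0.29, 5.39-fold, adjusted p by limma 0.00122). *Apoc3*, an inhibitor of lipolysis and of particle uptake, rose by 1.35 (SE 0.13, 2.55-fold, adjusted p by limma 0.000492), and *Apoa5*, an activator, rose by 1.14 (SE 0.37, adjusted p by limma 0.04999).

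*Apoc2*, the cofactor without which lipoprotein lipase is inactive, was read by a pair of probes that differed. ILMN_2647820 fell by 0.68 on the log2 scale with limma's adjusted p at 0.00625, while the log2 difference of ILMN_2880540 was -0.05 with an adjusted p of 0.813. *Apoc1* was likewise called lower on 1 probe and not on the other, and *Apoc4* fell by 0.63. *Lmf1*, the chaperone that folds the lipases, differed by -0.14 (95% interval -0.43 to 0.16), and *Apoe*, the ligand of VLDLR, by -0.00, with limma's adjusted p at 0.432 and 0.982. The *Apoe* probe read 28873 to 34968 as deposited, near the array maxima of 44365 to 47161, so its range for a rise was limited.

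Of the receptors and surface proteins for lipoproteins, 0 of 10 tested probes were higher and 7, for 6 genes, were lower. Over all tested probes the shares were 15.8% and 17.3%, and the list's median log2 difference was -0.80. *Vldlr*, a receptor too, thus differed in sign from the called probes of this list. *Lrp1*, a remnant receptor, fell by 0.67 on the log2 scale with an adjusted p by limma of 0.0441, and was detected on 3 hSRY-OFF arrays and 1 hSRY-ON array. It lost the call in 13 of 15 alternatives. *Sdc1*, a heparan sulfate proteoglycan that binds remnants, had log2 differences of -1.23 and -1.56 on its probes, both past the threshold. *Lrpap1*, a chaperone of lipoprotein receptors, fell by 0.93. *Scarb1* differed by -0.55 with limma's adjusted p at 0.172, and *Cd36* and *Lrp8* were detected on no array.

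Among other lipases and *Angptl* genes, 1 of 13 tested probes was higher and 6 were lower, beside 15.8% and 17.3% of all tested probes. *Pnpla2*, the lipase that starts the breakdown of stored triglyceride inside cells, rose by 2.03 on the log2 scale (SE 0.32, 4.07-fold, adjusted p by limma 0.0036). *Angptl2* fell by 0.68, and *Angptl7* was detected on every hSRY-OFF array and on 0 hSRY-ON arrays, where it was at least 1.69-fold lower on the background-corrected scale (adjusted p by limma 0.000866). It entered the test through the hSRY-OFF group alone, so nothing is read from its call. Its log2 difference was -1.39 with background correction and -0.45 without, so that the fold rests on that step. A bound of this kind sets the hSRY-OFF mean against the higher of the dimmest detected signal and the probe's own signal on each hSRY-ON array. *Pltp*, a phospholipid transfer protein, fell by 0.68, and *Pla1a*, a phospholipase of the lipase family, had log2 differences of -0.93 to -0.72 over 3 called probes.

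Of the regulators known to act on *Angptl4* or *Lpl*, 3 of 15 tested probes were higher and 3 lower. These counts stood beside 15.8% and 17.3% of all tested probes, and the median log2 difference was 0.14. *Ppara*, the receptor for fatty acids that drives *Angptl4* in liver, differed by -0.85 on the log2 scale (SE 0.28) with limma's adjusted p at 0.0536, and it was called lower in 8 of 16 alternatives, whose adjusted p ranged from 0.0113 to 0.157. *Ppargc1a*, a coactivator induced by fasting, rose by 1.71 (SE 0.53, adjusted p by limma 0.045). *Nr1h3*, the liver X receptor that acts on *Lpl*, had log2 differences of -0.94 and -1.08 on its probes, both past the threshold, and *Srebf1*, its lipogenic target, was detected on every hSRY-OFF array and on 0 hSRY-ON arrays, at least 5.42-fold lower on the background-corrected scale (adjusted p by limma 0.000219). *Srebf1* also entered the test through hSRY-OFF alone, so nothing is read from its call either. Its log2 difference was -2.88 with background correction and -1.34 without, so that this fold too rests on that step. The other *Srebf1* probe, ILMN_2696876, was detected on no array. *Nr1h2* rose by 0.50 on 1 of its probes and *Sirt1* rose by 0.44, while *Pparg* and *Hif1a* differed by 0.18 and -0.02 without passing the test.

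**Figure D3:**
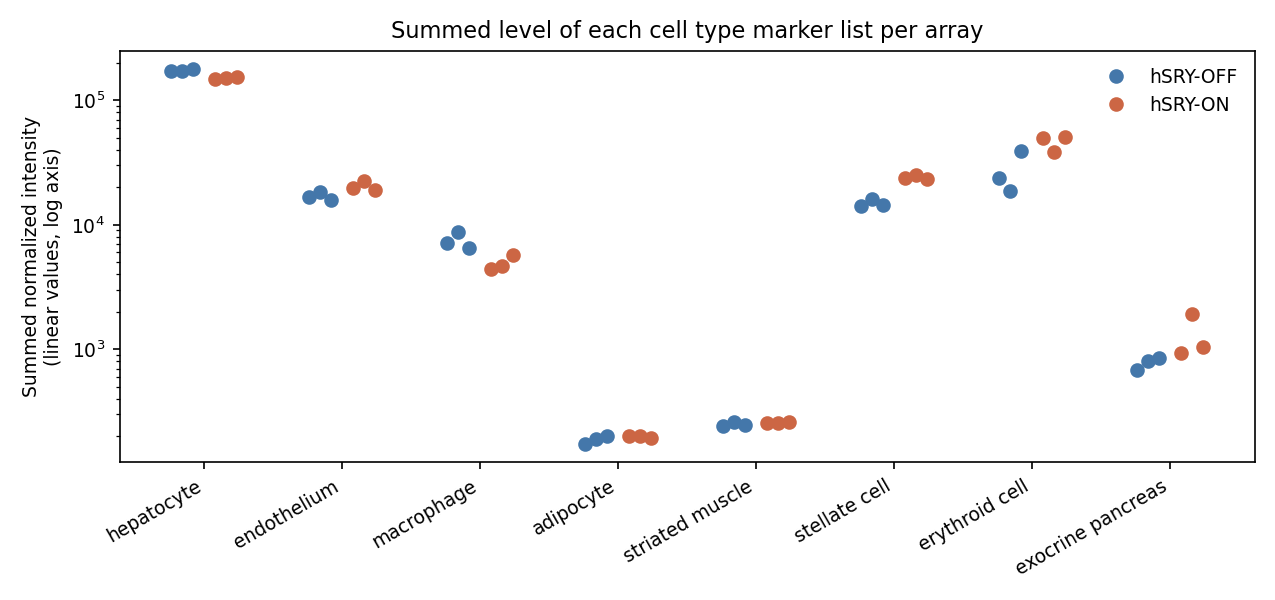
Summed normalized intensity (linear scale before the sum, log axis) of each list of cell type markers on each array, by group. The stellate, endothelial and exocrine pancreas sums were higher, and the hepatocyte and macrophage sums lower, on every hSRY-ON array. In the stellate list *Acta2* and *Des* were called higher and *Reln* lower, and *Lrat* was detected in hSRY-OFF only. *Cela1* was the only pancreas gene called. The adipocyte and striated muscle lists lay near background in both groups.

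The hepatocyte list matched the labelled tissue, with *Alb*, *Ttr* and *Apoa1* detected on every array and *Tat* and *Tdo2* detected on no array. Its sum was 171400 to 176800 in hSRY-OFF and 146900 to 153600 in hSRY-ON. Of its 6 tested probes, 0 were called higher and 2 lower, beside 15.8% and 17.3% of all tested probes. The 2 were for *Alb* at -1.11 and *Ttr* at -0.46 on the log2 scale, and the *Alb* probe read only 202 to 448 as deposited. The brightest probe of the list, for *Serpina1b*, read 37756 to 45632, near the array maxima of 44365 to 47161, so its range for a rise was limited. Macrophage markers, from cells that express *Lpl*, summed to 6453 to 8674 in hSRY-OFF and 4431 to 5717 in hSRY-ON. Their list had 1 of 9 tested probes higher and 4 lower, beside 15.8% and 17.3% of all tested probes. The stellate list summed to 14250 to 16030 and 23190 to 25030. Of its 11 tested probes, 5 were higher and 2 lower, beside 15.8% and 17.3% of all tested probes. Of those 5 higher probes, 4 were for *Acta2* and the other was for *Des*, at 0.77 on the log2 scale. *Col1a1*, *Col3a1* and *Dcn* did not pass the test. In the same list *Lrat* fell by 1.66 and *Reln* fell by 0.66 on the log2 scale, both called lower. *Lrat* was detected on 0 hSRY-ON arrays and entered the test through the hSRY-OFF group alone, so nothing is read from its call. Erythroid markers summed to 18630 to 38820 in hSRY-OFF and 38370 to 50340 in hSRY-ON. The exocrine pancreas list summed to 679.5 to 855.1 in hSRY-OFF and 934.9 to 1938 in hSRY-ON, the highest value being that of hSRY-ON replicate 2, the liver with the highest *Lpl*, *Angptl4* and *Gpihbp1* of its group as deposited. *Cela1*, at 0.44 on the log2 scale, was the only called probe of the 3 tested in this list. *Cpa1* and *Ctrb1* were detected on hSRY-ON replicate 2 alone, and *Prss2* and *Ptf1a* on no array. The part of these lists in the levels of *Lpl*, *Angptl4* and *Vldlr* was not tested.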

How the data were processed

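Total RNA of 6 livers was labelled and hybridised to Illumina MouseRef-8 BeadChips by the authors, who deposited a non-normalized bead intensity and a detection p-value per probe and array. The study's methods name TCC, a package for counts, and the submitters' processing notes name limma. Intensities were background-corrected from the detection p-values (nec, offset 16), quantile-normalized and log2-transformed with limma 3.58.1 in R 4.3.3. A probe entered the test when 3 or more arrays, of either group, gave it a detection p below 0.01, which 10734 of 25697 did. The 2 groups were then compared by lmFit and eBayes with group as the single term, and Benjamini-Hochberg adjustment ran over every tested probe, with a threshold of 0.05. The pipeline was tested on simulated data. The number of arrays, 3 per group from separate mice, limits the precision.

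Named genes were the 7 chosen, every probe of them, and from the pathway lists those past the threshold plus a fixed set given whatever their values. Genes and lists were chosen with earlier results of these data known. Of 18138 symbols, 14307 were current in RefSeq (GRCm38.p6), 2927 were matched through an older name and 904 kept the file's name. Alternatives covered background correction, scaling, probe filter, moderation, array weights, a replicate block, the threshold, averaging probes and leaving out each mouse. Replicate numbers were not treated as pairs. Some genes of the pathway lists are counted in the list totals and are not reported here by name.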

Additional observations from a re-analysis of the deposited data

How the results depend on the processing

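*Angptl4*, *Gpihbp1* and the 3 *Vldlr* probes kept their direction and their call under the 16 alternatives run for each. Their log2 differences ranged from 1.59 to 1.85, from 1.45 to 1.69 and from 1.25 to 1.79, and their highest adjusted p-values by limma were 0.00331, 0.00473 and 0.00602. *Lpl* was called lower with array weights, so that 1 of the chosen probes was lower there, and in 1 setting that left out a mouse, without hSRY-ON replicate 2. With the probes of a symbol averaged, 3 of the chosen genes were higher, since the *Vldlr* probes then count once. No called difference changed sign. The uncalled *Apoc2* probe ILMN_2880540, at -0.05, was at 0.01 without hSRY-OFF replicate 3. At the threshold of 0.05, 9 of the 26 called pathway probes lost the call in at least 1 other fit, *Lrp1* in 13 of 15, and *Ppara* gained one in 8 of 16.

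The pathway lists had 11 higher probes with array weights, and 2 higher and 12 lower at an adjusted p under 0.01, where 1665 of all probes passed against 3554. Leaving out 1 mouse at a time gave 5 to 5 chosen probes higher and 0 to 1 lower, 2 to 9 pathway probes higher and 15 to 20 lower, and 2034 to 4060 of all probes called. Without hSRY-OFF replicate 1 it was 2034, and without hSRY-OFF replicate 2 it was 2166. The cause was not tested.

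The replicate numbers are not stated to mark litters, and the deviations of same-numbered arrays correlated at 0.02, 0.10 and 0.05, so that they were not taken as pairs. With the replicate block, 3210 probes were called, the chosen probes stood at 5 higher and 0 lower, and not every array correlated best with its own number.

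Probes near background, such as those of *Lipc* and *Lipg*, carry no level to compare.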
